A study of Mus musculus with 60 samples.

Results

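The levels of 9 genes of the complement system were followed in the mouse kidney: C3, C4b, C1qa, C1qb, C1qc, Cfi, Cfb, Cd55 and Cd59a. They were chosen by name as a list of 9 genes, out of 55335 genes in the count tables and 15546 genes that passed a filter on low counts, and all 9 passed that filter. RNA sequencing had been performed on 60 male mice of the C57BL/6J background that all carried both floxed Bmal1 alleles (Bmal1lox/lox). The 30 cKOt mice carried the transgenes Pax8-rtTA and LC-1 Cre in addition, and the 30 control mice did not. At 8 weeks of age all mice received doxycycline at 2 mg/ml with sucrose at 20 mg/ml in the drinking water for 2 weeks, and kidneys were taken 4 weeks later. Kidneys of 5 mice of each genotype were taken at each of 6 zeitgeber times (every 4 h from ZT0 to ZT20, with light on at ZT0 and off at ZT12), which gives 12 groups. The Pax8 promoter drives the deletion in renal tubule cells, and it is not known to target the macrophages, vessels and interstitial cells of the kidney. The labels name the tissue as renal tubule, whereas the methods of the study describe frozen kidney tissue. Markers of other kidney cells were read in these libraries, among them Pecam1 of endothelium and Csf1r of macrophages.

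The libraries held 17791420 to 20906706 counted reads each. RNA integrity numbers ran from 7.9 to 9.6, and 1 library, cKOt ZT16 replicate 4, is marked for removal in the study's sample list although its counts were deposited. The Bmal1 gene, listed as Arntl, swung in control mice from 2.73 ± 0.82 CPM (reads of the gene scaled by library size; SD, n = 5) at ZT8 to 48.4 ± 10.2 CPM at ZT0, and in cKOt mice it stayed between 17.4 ± 2.0 CPM at ZT12 and 24.4 ± 1.6 CPM at ZT0. This count takes in the whole gene and does not read the deleted exon by itself.

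The complement system is a cascade of plasma and cell-surface proteins that marks targets for removal. The classical pathway starts with C1q, a hexamer built of 3 kinds of chain (the products of C1qa, C1qb and C1qc), and proceeds through C4 and C2 to the cleavage of C3. The alternative pathway uses factor B (Cfb) to cleave more C3 and so amplifies deposition. Factor I (Cfi), a plasma protease, cuts deposited C3b and C4b with the help of cofactors. CD55 (decay-accelerating factor) takes convertases apart on the cell surface, and CD59 blocks assembly of the membrane attack complex. In the kidney, C1q is known as a product of resident macrophages, and tubule cells are a known local source of C3.

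All 9 genes differed between genotypes in their mean level over the 6 time points, at an adjusted p under 0.05 in an edgeR quasi-likelihood test. The 7 that were lower in cKOt kidneys were C3, C4b, C1qa, C1qb, C1qc, Cfb and Cd55, and the 2 that were higher were Cfi and Cd59a. The same test was passed by 50.0% of the 15546 genes, 23.2% as lower and 26.8% as higher, so that a call by itself says little here. The median absolute log2 fold change was 0.44 over the 9 genes and 0.10 over all genes. The median signed value was -0.23 over the 9 genes and 0.01 over all genes. When a fold change above 1.2 was required in addition, which 16.1% of all genes met, C3, C4b, Cfb and Cd55 remained as lower and Cfi as higher. The 3 C1q genes and Cd59a did not reach that size.

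**Figure D1:**
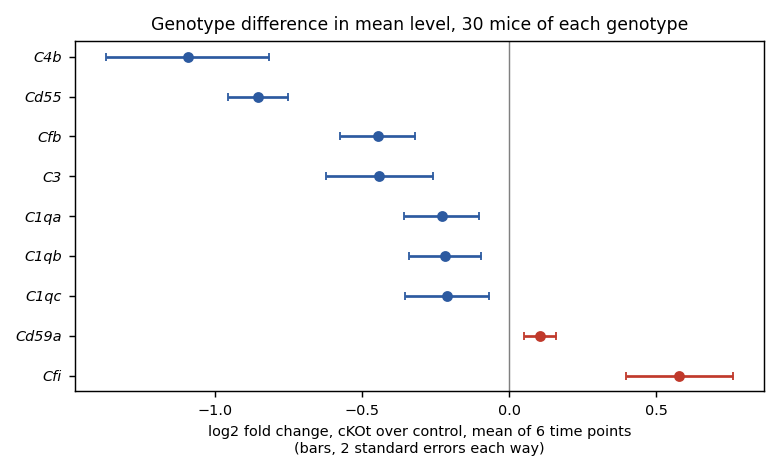
Log2 fold change of each gene in cKOt over control kidneys (x axis), as the mean of 6 time points over 30 mice of each genotype, with bars of 2 standard errors each way. C4b and Cd55 lie farthest to the left at -1.09 and -0.86, the 3 C1q genes sit close together between -0.23 and -0.21, and Cfi lies at 0.58 and Cd59a at 0.10.

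At single time points 19 of the 54 combinations of gene and time passed the test, against 16.5% of all such combinations over the transcriptome. Cd55 passed at 6 time points, C4b at 4, Cfb at 3, Cfi and Cd59a at 2 each, and C3 and C1qa at 1 each. C1qb and C1qc passed at none. By time, 2 of the 9 genes passed at ZT0, where 12.1% of all genes did, and 3 at ZT4, where 12.5% did. At ZT8 and at ZT12, 3 genes passed (19.9% and 21.0% of all genes). At ZT16 and at ZT20, 4 genes passed (19.8% and 13.8%). The 5 and 5 values did not overlap in 13 of 54 combinations, against 8.92% of all gene and time combinations. By time they did not overlap in 2, 4, 3, 1, 1 and 2 of the 9 genes from ZT0 to ZT20, against 7.30%, 11.1%, 9.49%, 9.73%, 9.04% and 6.86% of all genes. Of these 13, 6 belonged to Cd55 and 4 to C4b. The sign of the difference matched the sign of the mean difference in 52 of 54 combinations, with Cfi at ZT20 and Cd59a at ZT12 as the exceptions. None of the 9 genes passed the test of whether the genotype difference varied with time (adjusted p from 0.18 to 1.00), a test that 3.08% of all genes passed. None passed it with DESeq2 or limma either. At an unadjusted p under 0.05, Cfi, Cfb, Cd55 and Cd59a passed it. The share of all genes at that unadjusted threshold was not computed, so an excess among the 9 genes is not shown.

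**Figure D2:**
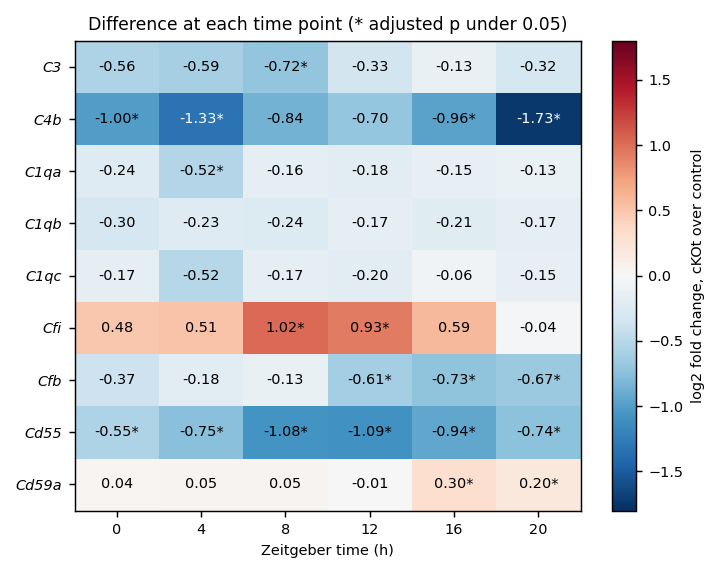
Log2 fold change in cKOt over control kidneys for each gene (rows) at each zeitgeber time in hours (columns), 5 mice against 5, with a star where the adjusted p was under 0.05. The Cd55 row is starred at all 6 times and deepest at ZT8 and ZT12 (-1.08 and -1.09), the C4b row is deepest at ZT20 (-1.73), and the Cfi row peaks at ZT8 (1.02).

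Levels of different genes were compared per length, as CPM per kilobase of merged exons, which run from 1040 bases in C1qa to 5695 bases in C4b. In control kidneys Cd59a was the highest at 15.8 ± 1.7 CPM per kilobase (SD, n = 30). It was followed by C1qb at 9.89 ± 2.03, C1qa at 7.35 ± 1.44 and Cd55 at 6.00 ± 0.83 CPM per kilobase. Cfi (2.66 ± 0.93), C3 (2.54 ± 0.83) and C1qc (2.44 ± 0.50) lay together, and C4b was the lowest at 1.65 ± 0.84 CPM per kilobase. Neighbours in this order could be told apart in most mice at the top and not in the middle. Cd59a exceeded C1qb in 30 of 30 control mice and C1qb exceeded C1qa in 29 of 30, but Cfi exceeded C3 in 16 of 30 and C3 exceeded C1qc in 17 of 30. In cKOt kidneys Cd55 (3.39 ± 0.74 CPM per kilobase) lay above Cfi (4.09 ± 1.48) in 8 of 30 mice, whereas it did so in 30 of 30 control mice. Cfb was left out of the order for the reason given with its values.

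**Figure D3:**
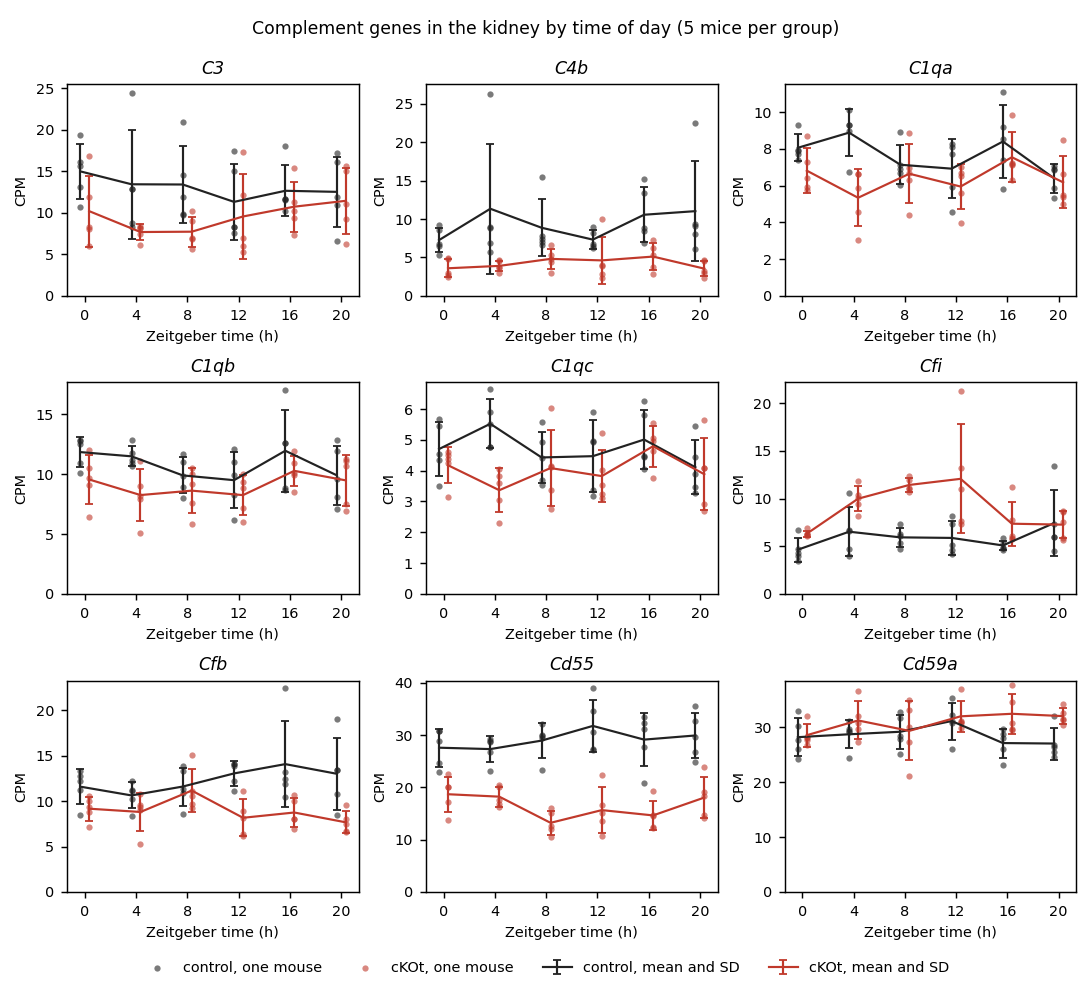
CPM of each of the 9 genes (y axis, from 0) against zeitgeber time in hours, with a point for each mouse, control in black and cKOt in red, set slightly apart for legibility. Lines and bars give the mean and SD of 5 mice, and the Cd55 points of the genotypes do not overlap at any time, while the C1qb points overlap at every time.

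The C1q chains are encoded side by side on chromosome 4 of GRCm38, on the minus strand: C1qb at 136880129-136886187, C1qc at 136889804-136893065 and C1qa at 136895917-136898803. The window before the C1qb start is shown because C1q is known as a macrophage product, and PU.1, a factor of myeloid cells, is known to bind sites of the letters GAGGAA. The 250 bases that end at the RefSeq start (GRCm38.p6, chr4:136886201-136886450, minus strand) hold a single such match, in capitals.

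C1qb: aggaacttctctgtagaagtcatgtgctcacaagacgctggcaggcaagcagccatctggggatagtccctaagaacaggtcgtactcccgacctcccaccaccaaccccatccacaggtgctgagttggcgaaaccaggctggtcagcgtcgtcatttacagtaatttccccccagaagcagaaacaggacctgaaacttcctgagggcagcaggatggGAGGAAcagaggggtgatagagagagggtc

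These letters lie 30 bases before the start, and 23.3% of 32851 RefSeq promoter windows of this length hold them on either strand, so the match is common.

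C1qa, which codes for the A chain, ranged from 4.59 to 11.1 CPM in the 30 control mice (median 7.56) and from 3.02 to 9.87 CPM in the 30 cKOt mice (median 6.57). The ranges overlap widely, and 26 of 30 cKOt mice lay below the control median. The log2 fold change was -0.23 ± 0.06 (SE, adjusted p = 0.00234). C1qb ran from 6.20 to 17.1 CPM in controls (median 11.0) and from 5.09 to 12.1 CPM in cKOt mice (median 9.22), a log2 fold change of -0.22 ± 0.06 (adjusted p = 0.00243). C1qc ran from 3.17 to 6.64 CPM in controls (median 4.65) and from 2.29 to 6.03 CPM in cKOt mice (median 4.07), a log2 fold change of -0.21 ± 0.07 (adjusted p = 0.0121). The 3 chains thus fell by 13.6% to 14.7%. C1qc rests on 41 to 121 reads per library, the fewest of the 9 genes. Within the 6 batches of libraries, C1qa and C1qb were lower in cKOt mice in 6 of 6 and C1qc in 5 of 6. Here and below, batch values are plain differences of mean log2 CPM, without regard to time of day. Numbers were unequal, with 3 control and 6 cKOt mice in batch 4, and 6 and 3 in batch 6. The share of all genes with the same sign in 6 of 6 batches is not given, so such a count says little by itself.

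The proportions of the 3 transcripts stayed alike. The count of C1qb was 1.38 times that of C1qa in the median control mouse and 1.40 times in the median cKOt mouse. The ratio of C1qb to C1qc was 2.26 in the median control mouse and 2.22 in the median cKOt mouse. Over all 60 mice these ratios had coefficients of variation of 14.5% and 14.2%. At ZT4 the 5 control mice gave 9.33, 9.3, 10.1, 6.76 and 8.96 CPM of C1qa, and the 5 cKOt mice 4.57, 6.66, 5.85, 6.61 and 3.02 CPM. These values do not overlap, and ZT4 was the only time at which a C1q gene passed (C1qa, log2 fold change -0.52 ± 0.17, adjusted p = 0.0251). Without the mice that carry replicate number 1 the C1qa difference at ZT4 was -0.37 (adjusted p = 0.241), and without those of number 2 it was -0.57 (adjusted p = 0.0504).

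Macrophage markers moved with the C1q genes. Of the 11 macrophage markers tested, 10 were lower in cKOt kidneys and none was higher, with a median log2 fold change of -0.28. Of all genes, 23.2% were lower and 26.8% higher. Ms4a7 changed the most (-0.50), and Csf1r, the receptor on which macrophages depend, gave -0.01 with an adjusted p of 0.806. The summed level of the 11 markers ran from 92.0 to 166 CPM in controls (median 132) and from 95.1 to 135 CPM in cKOt mice (median 117). Cd163 had too few reads to be tested, with at most 17 reads in any library. Markers of antigen-presenting cells moved the same way, with 6 of 8 lower and a median of -0.33. Their part in the C1q difference was not tested, and in these bulk samples fewer cells of a type and less RNA per cell cannot be told apart.

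C4b codes for complement C4, whose cleavage product binds to targets and forms a convertase with C2. The gene lies on the minus strand of chromosome 17 at 34728380-34743882. It ran from 5.28 to 26.3 CPM in the 30 control mice (median 8.09) and from 2.33 to 10.0 CPM in the 30 cKOt mice (median 3.96). Of the 30 cKOt mice, 24 lay below the lowest control mouse. The log2 fold change was -1.09 ± 0.14 (adjusted p = 2.03e-09), or 0.469 times the control level, the largest change among the 9 genes. It was lower in 6 of 6 batches, from -1.47 to -0.74.

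Control mice differed much in C4b. At ZT4 the controls gave 8.84, 9.02, 26.3, 6.87 and 5.70 CPM against 4.67, 4.56, 3.69, 3.58 and 3.02 CPM in cKOt mice. At ZT20 the controls gave 22.5, 6.16, 8.02, 9.37 and 9.09 CPM against 2.98, 3.26, 2.33, 4.49 and 4.67 CPM in cKOt mice. A single control mouse stands far above the others at each of these times, and the genotypes do not overlap at either. The difference was -1.33 ± 0.36 at ZT4 (adjusted p = 0.00733) and -1.73 ± 0.34 at ZT20 (adjusted p = 0.000172). Without the high control mouse at ZT4 the difference there was -0.89 (adjusted p = 0.0751), so that call rests on it. Without the high control mouse at ZT20 the difference was -1.27 (adjusted p = 0.00689). At ZT0 the values do not overlap and the adjusted p was 0.0497, just inside the threshold, and the call was lost in 11 of 19 alternative fits. At ZT8 they do not overlap either, and the difference of -0.84 ± 0.34 had an adjusted p of 0.0673. At ZT16 the difference was -0.96 ± 0.33 (adjusted p = 0.0320), and without the cKOt library marked for removal it was -0.77 (adjusted p = 0.118), and the call was also lost without replicate number 3, 4 or 5.

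C4a, the neighbouring copy of C4b on the same strand (34809092-34823464), fell further, from 9.48 ± 5.63 CPM in controls to 1.02 ± 0.30 CPM in cKOt mice (SD, n = 30), a log2 fold change of -3.13 ± 0.15 (adjusted p = 1.74e-24). Of all stretches of 150 bases in C4b transcripts, 7.48% occur identically in C4a transcripts, and reads from these cannot be told apart. C4a carried a rhythm in control mice alone by the models described with Cfi, with a BIC weight of 0.921, whereas C4b was assigned to no rhythm in either genotype (weight 0.897).

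C3 is the protein at which all pathways meet. Its gene lies on the minus strand of chromosome 17 at 57203970-57228136. The window before its start (GRCm38.p6, chr17:57228137-57228386, minus strand) is shown with matches in capitals. It was chosen because it holds the letters TTGCNNAA of C/EBP factors, known from acute-phase genes, and the half-site AGGTCA of the clock factor ROR.

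C3: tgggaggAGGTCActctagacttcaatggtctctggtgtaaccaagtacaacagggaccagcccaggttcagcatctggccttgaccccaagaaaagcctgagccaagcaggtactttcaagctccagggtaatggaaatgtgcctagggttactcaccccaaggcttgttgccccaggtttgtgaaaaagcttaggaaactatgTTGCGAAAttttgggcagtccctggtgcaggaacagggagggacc

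The C/EBP letters lie 45 bases and the ROR letters 243 bases before the start. Of all promoter windows, 9.56% hold the former and 14.0% the latter. C3 ran from 6.64 to 24.5 CPM in controls (median 11.9) and from 5.35 to 17.4 CPM in cKOt mice (median 8.36), and 24 of 30 cKOt mice lay below the control median. The log2 fold change was -0.44 ± 0.09 (adjusted p = 5.35e-05), with a lower level in 6 of 6 batches. The spread within groups was wide, with a median coefficient of variation of 34.1% in control and 31.1% in cKOt groups. At ZT8 the controls gave 9.91, 14.6, 11.9, 20.9 and 9.77 CPM and the cKOt mice 5.66, 10.2, 8.99, 6.82 and 7.01 CPM. A single cKOt value lies within the control range, and this was the single time at which C3 passed (-0.72 ± 0.23, adjusted p = 0.0176). Without the mice of replicate number 4, which include the highest control, it gave -0.61 (adjusted p = 0.103), and without those of number 2 it gave -0.66 (adjusted p = 0.103). With 1 or no factor of unwanted variation the difference was -0.80 in both fits and did not pass (adjusted p = 0.0580 and 0.0689). From ZT12 to ZT20 the C3 differences lay between -0.33 and -0.13 and did not pass.

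Cfb, the protease component of the alternative convertase, lies at 34856374-34862518 on the minus strand of chromosome 17, next to C2. It ran from 8.39 to 22.4 CPM in controls (median 12.2) and from 5.26 to 15.1 CPM in cKOt mice (median 9.17). Of the 30 cKOt mice, 29 lay below the control median. The log2 fold change was -0.45 ± 0.06 (adjusted p = 3.36e-08), with a lower level in 6 of 6 batches. Its calls fell at ZT12, ZT16 and ZT20. At ZT12, when light went off, the controls gave 14.1, 13.9, 14.1, 12.2 and 11.1 CPM and the cKOt mice 6.19, 11.2, 8.19, 6.37 and 8.94 CPM. At that time only the highest cKOt mouse reached the lowest control. The differences were -0.61 ± 0.16 at ZT12, -0.73 ± 0.15 at ZT16 and -0.67 ± 0.16 at ZT20 (adjusted p from 0.000319 to 0.00271), and -0.37, -0.18 and -0.13 at ZT0, ZT4 and ZT8, none of which passed. Whether these differ between times was not shown, since the test for it gave an adjusted p of 0.272. Without the mice of replicate number 1, among them the control mouse at 22.4 CPM, the ZT16 difference was -0.44 (adjusted p = 0.0757). In the annotation, 79.5% of the exonic bases of Cfb lie under a read-through gene model on the same strand, Gm20547, which had 0 reads in all 60 libraries. How reads in those bases were assigned was not tested, and the level of Cfb was therefore not set beside those of other genes.

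Cfi, factor I, was the gene of the list that rose the most. It lies on the plus strand of chromosome 3 at 129835884-129875332. It ran from 3.50 to 13.4 CPM in controls (median 5.36) and from 5.61 to 21.3 CPM in cKOt mice (median 8.41). All 30 cKOt mice lay above the control median. The change in Cfi was 0.58 ± 0.09 on the log2 scale (adjusted p = 3.63e-07), or 1.49 times the control level, and it was positive in 6 of 6 batches, from 0.41 to 0.77. At ZT8 the controls gave 6.03, 5.35, 6.25, 7.34 and 4.68 CPM and the cKOt mice 11.0, 12.4, 12.0, 10.7 and 11.1 CPM. No values overlap here, and the difference was 1.02 ± 0.22 (adjusted p = 0.000366). At ZT12 the controls gave 4.59, 5.15, 7.31, 8.15 and 4.16 CPM and the cKOt mice 21.3, 7.30, 13.2, 7.61 and 11.0 CPM, with a difference of 0.93 ± 0.22 (adjusted p = 0.00108). A single cKOt mouse is far above the rest at ZT12, and 2 lie within the control range. At ZT20 the difference was -0.04 ± 0.22, and the means were 7.43 ± 3.46 CPM in controls and 7.27 ± 1.45 CPM in cKOt mice.

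The level of Cfi varied with time of day in cKOt kidneys. Its group mean rose there from 6.32 ± 0.33 CPM at ZT0 to 11.4 ± 0.7 CPM at ZT8 and 12.1 ± 5.7 CPM at ZT12, and was 7.36 ± 2.30 CPM at ZT16. In controls the group means lay between 4.64 ± 1.26 and 7.43 ± 3.46 CPM. The F test over the 6 times gave an adjusted p of 0.00431 in cKOt mice (26.6% of all genes passed) and 0.217 in controls (30.6% passed). A set of 5 harmonic models with a period of 24 h were compared by their BIC weights, and Cfi was assigned to a rhythm in cKOt mice alone (the gain-of-rhythm model, weight 0.977), with a peak at ZT8.9 and a peak-to-trough amplitude of 0.87 on the log2 scale. The fitted amplitude in controls was 0.02. Without the highest cKOt mouse at ZT12 the assignment stayed. The test of the difference itself, whether the genotype effect varied with time, gave an adjusted p of 0.218 for Cfi, so a difference in rhythm between genotypes was not shown by that test.

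Cd55, decay-accelerating factor, was the one gene of the list that passed, and whose genotypes did not overlap, at each of the 6 times. The gene lies on the minus strand of chromosome 1 at 130439027-130462744. Its upstream window is shown because Cd55 was called at every time (GRCm38.p6, chr1:130462745-130462994, minus strand), and it holds no capitals because none of the 9 motifs searched was found in it.

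Cd55: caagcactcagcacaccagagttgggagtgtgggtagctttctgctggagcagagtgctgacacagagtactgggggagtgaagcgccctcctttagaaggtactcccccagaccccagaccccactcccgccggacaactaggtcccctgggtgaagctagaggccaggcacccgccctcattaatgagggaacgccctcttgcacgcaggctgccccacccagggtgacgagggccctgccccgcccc

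The motifs searched on both strands in the 5 of 9 genes with a RefSeq window (C3, C1qb, C1qc, Cd55 and Cd59a) were the C/EBP, ROR and PU.1 letters given above, the E-box CACGTG (in 6.02% of all windows), the D-box TTATGTAA (0.819%), the STAT site TTCNNNGAA (7.02%), the interferon-response element (2.98%), the NF-kB site (0.140%) and TATAAA (12.4%). The E-box, the D-box and the ROR half-site are among the letters through which clock factors are known to act. No E-box and no D-box was in any of the 5 windows, which says only that these letters are not in these bases. The interferon-response letters were in Cd59a, the PU.1 letters in C1qb, C1qc and Cd59a, and the ROR half-site in C3 and C1qc. Some motif letters can overlap one another.

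Cd55 ran from 20.9 to 39.0 CPM in controls (median 29.4) and from 10.5 to 23.8 CPM in cKOt mice (median 16.1). Of the 30 cKOt mice, 27 lay below the lowest control. The change in Cd55 was -0.86 ± 0.05 on the log2 scale (adjusted p = 5.46e-21), or 0.552 times the control level, with a lower level in 6 of 6 batches. At ZT8 the controls gave 30.0, 23.4, 32.2, 29.4 and 29.9 CPM and the cKOt mice 12.6, 16.0, 15.1, 12.0 and 10.5 CPM. At ZT12 the controls gave 34.6, 27.4, 27.2, 39.0 and 30.6 CPM and the cKOt mice 22.4, 10.7, 15.1, 16.6 and 13.7 CPM. At ZT0, where the gap was narrowest, the controls gave 22.9, 28.8, 30.8, 24.7 and 30.9 CPM and the cKOt mice 20.0, 20.0, 22.6, 13.7 and 17.2 CPM. The genotypes do not overlap at any of the 6 times. The differences ran from -0.55 ± 0.12 at ZT0 to -1.09 ± 0.13 at ZT12, and the highest adjusted p among them was 0.00112. Of the 150-base stretches in Cd55 transcripts, 2.11% also occur in its neighbour Cd55b, which had at most 1 read in any library.

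In cKOt kidneys the Cd55 mean was 13.2 ± 2.3 CPM at ZT8 and 18.7 ± 3.4 CPM at ZT0, and in controls all 6 means lay between 27.3 ± 2.6 and 31.8 ± 5.1 CPM. The F test over time gave an adjusted p of 0.0194 in cKOt mice and 0.918 in controls. The time effect in cKOt mice did not pass when replicate number 1, 2 or 3 was left out. The gain-of-rhythm model was assigned with a weight of 0.959, a peak at ZT23.0 and a peak-to-trough amplitude of 0.45, against 0.12 in controls. The test of a varying genotype difference gave an adjusted p of 0.223. Cfi and Cd55 were thus the 2 of the 9 genes in the gain-of-rhythm model, to which 3.42% of all genes were assigned, with the Cfi peak in the light phase and the Cd55 peak late in the dark phase. C4b, C1qa, C1qb and C1qc were assigned to the nonrhythmic model (34.0% of all genes). C3, Cfb and Cd59a were assigned to no model at a weight of 0.65 (28.7% of all genes). None of the 9 genes passed the test of a time effect in controls, and none had an unadjusted p under 0.05 there, nor did any pass with DESeq2.

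Cd59a, the more widely expressed of the mouse genes for CD59, lies on the plus strand of chromosome 2 at 104095801-104115354. Its log2 fold change was the smallest in size among the 9 genes. It ran from 23.1 to 35.4 CPM in controls (median 28.7) and from 21.2 to 37.7 CPM in cKOt mice (median 30.8). The ranges overlap almost fully, and 23 of 30 cKOt mice lay above the control median. The log2 fold change was 0.10 ± 0.03 (adjusted p = 0.00114), or 7.51% higher, and it was positive in 4 of 6 batches. At ZT16 the controls gave 23.1, 28.9, 26.1, 28.0 and 29.7 CPM and the cKOt mice 29.5, 29.7, 37.7, 30.8 and 34.7 CPM, a difference of 0.30 ± 0.07 (adjusted p = 0.000481). Only the lowest cKOt mouse and the highest control mouse cross at ZT16. At ZT20 the difference was 0.20 ± 0.07 (adjusted p = 0.0414), and at the other 4 times it lay between -0.01 and 0.05. Without the correction for unwanted variation the differences were 0.26 at ZT16 (adjusted p = 0.0770) and 0.24 at ZT20 (adjusted p = 0.117), and neither passed. The ZT20 call was also lost without replicate number 1, 3, 4 or 5 and without cKOt ZT12 replicate 1 (adjusted p from 0.0552 to 0.192).

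The 9 genes were next compared among mice of the same genotype and time, by correlating log2 CPM after the mean of each group of 5 had been removed (36 pairs, 60 mice, permutation of mice within groups, two-sided). In all, 10 pairs passed after Benjamini-Hochberg adjustment over the 36 pairs for both Pearson's r and Spearman's rho, 9 of them positive. The share of all gene pairs that would pass was not computed, so an excess among these 36 pairs is not shown. The C1q chains varied together, with r = 0.77 for C1qa and C1qb, 0.75 for C1qa and C1qc and 0.79 for C1qb and C1qc (rho from 0.72 to 0.76, permutation p = 1e-05 for each, the smallest these permutations can give, and adjusted p = 9e-05). Without the 2 most distant mice these were 0.72, 0.72 and 0.76, and within single batches r ran from 0.25 to 0.92.

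C4b varied with Cfi (r = 0.61, rho = 0.38, permutation p = 0.00013 and 0.00675, adjusted p = 0.00084 and 0.0304), with r = 0.48 without the 2 most distant mice and between 0.28 and 0.88 within batches. This holds although the genotypes moved these genes in opposite directions. C3 varied with Cd59a (r = 0.54, rho = 0.58, permutation p = 1e-05 for both, adjusted p = 9e-05), and r stayed at 0.50 without the 2 most distant mice and between 0.18 and 0.85 within batches. C3 and C4b gave r = 0.48 and rho = 0.35 (permutation p = 0.00198 and 0.016, adjusted p = 0.00891 and 0.0443), with r = 0.33 without the 2 most distant mice and between 0.071 and 0.84 within batches. C1qb varied with C3 (r = 0.45, rho = 0.49, permutation p = 0.00061 and 0.00027, adjusted p = 0.00314 and 0.00192), with r = 0.46 without the 2 most distant mice and from 0.011 to 0.62 within batches. C1qb also varied with C4b (r = 0.37, rho = 0.39, permutation p = 0.00403 and 0.00454, adjusted p = 0.0161 and 0.0233), with r = 0.37 without the 2 most distant mice and from -0.020 to 0.66 within batches. Cd55 and Cd59a gave r = 0.35 and rho = 0.34 (permutation p = 0.008 and 0.0135, adjusted p = 0.0288 and 0.0429), with r = 0.32 without the 2 most distant mice and from 0.070 to 0.52 within batches. The single negative pair was Cfb with Cd59a (r = -0.52, rho = -0.50, permutation p = 0.00014 and 0.00032, adjusted p = 0.00084 and 0.00192), with r = -0.45 without the 2 most distant mice and from -0.80 to -0.25 within batches. All values of a mouse come from a single library, so that differences in the piece of kidney or in the library enter every pair.

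**Figure D4:**
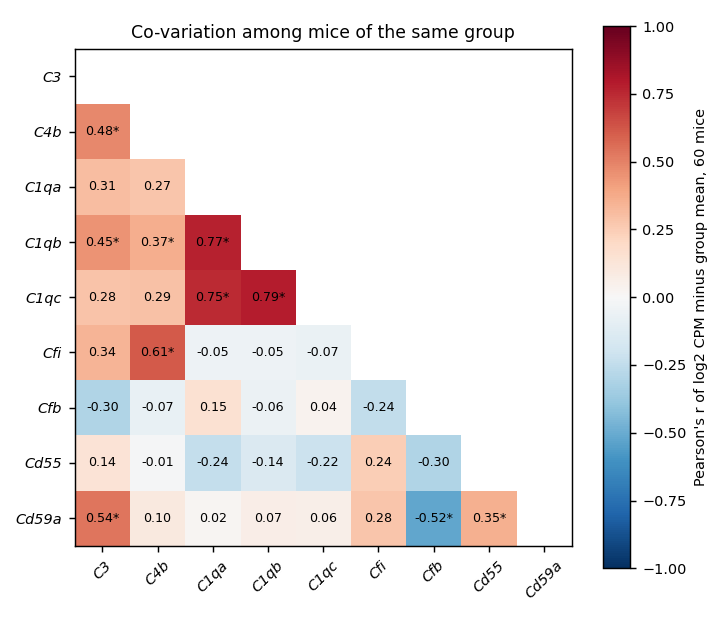
Pearson's r between each pair of the 9 genes over 60 mice, on log2 CPM with the group mean removed, with a star where both r and rho passed after adjustment over 36 pairs. The block of C1q chains stands out in red with r from 0.75 to 0.79, and the Cfb and Cd59a pair in blue with r = -0.52.

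Within each group of 5 some mouse must be the highest, and a few mice were so in many genes. The control mouse ZT4 replicate 3 was the highest in 7 of the 9 genes, and 5 other mice were the highest in 5 genes each. Among these, the cKOt mouse ZT12 replicate 1 led in C3, C4b, Cfi, Cd55 and Cd59a and was the lowest in Cfb. The control mouse ZT20 replicate 1 led in C4b, Cfi, Cd55 and Cd59a and was also the lowest in Cfb. All 9 mean differences passed with the same sign without each of these 3 mice in turn.

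The other genes of the pathway were read from a list of 58 complement genes, of which 40 passed the filter on low counts, and 22 were lower and 8 higher in cKOt kidneys. Of all 15546 genes, 23.2% were lower and 26.8% higher, so the small counts within single arms say little by themselves. Without the 9 genes described, 15 of 31 were lower, 6 were higher and 10 did not pass, with a median log2 fold change of -0.17 (all genes, 0.01). In the classical pathway 3 of 5 others were lower and 1 was higher. C1ra, C1s1 and C4a were those lower, and C1s1 was the only gene of the 40 with a genotype difference that varied with time (adjusted p = 0.0370). C1ra, C1s1, C8g, Csf1r, Fga and Fgb are named outside the rule for named genes, after their values were seen. Also named outside that rule are Pecam1, Cd163, Ahsg, Cfd, Cfp, C9, Hc, C4bp, Vtn and Vsig4. In the lectin pathway 3 of 6 were lower and 1 was higher, and Mbl1, a mannose-binding lectin, fell from 4.17 ± 1.24 to 1.95 ± 0.47 CPM (-1.09 ± 0.09, adjusted p = 9.53e-16). In the alternative pathway neither Cfd nor Cfp passed. In the terminal pathway 1 of 4 was lower and 1 was higher, with C8a falling from 54.4 ± 5.9 to 31.7 ± 4.2 CPM (-0.80 ± 0.03, adjusted p = 8.34e-27) and C8g rising by 0.39 on the log2 scale.

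Of the other soluble regulators, 2 of 4 rose and 2 fell. Cpn1, a subunit of the carboxypeptidase that inactivates anaphylatoxins, rose from 37.4 ± 6.5 to 72.3 ± 13.6 CPM (0.96 ± 0.04, adjusted p = 5.21e-26). Of the other membrane regulators 2 of 5 were lower. Cr1l, which codes for the rodent regulator Crry, gave 0.03 ± 0.02 (adjusted p = 0.233), and Cd59b gave 0.12 ± 0.08 (adjusted p = 0.187). Among receptors 4 of 5 were lower, and Cr2 was higher, at 1.99 ± 0.50 CPM in controls and 3.29 ± 0.73 CPM in cKOt mice (0.70 ± 0.08, adjusted p = 3.20e-11). A further 17 genes of the list were in the files and had too few reads, among them C9, Hc (complement C5), C4bp, Vtn and Vsig4.

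Marker lists of other cells and states were counted in the same test, which 23.2% of all genes passed as lower and 26.8% as higher. T cell markers were lower in 4 of 6 (Cd8a, -0.63), the single B cell marker tested was lower (Cd79b, -0.39), and the single neutrophil marker and the 2 erythroid markers tested did not pass. Endothelial markers were lower in 7 of 7, at most by 0.13 on the log2 scale in size (Emcn, -0.13), and markers of fibroblasts and mesangium in 5 of 8 (Col1a1, -0.37). Podocyte markers were higher in 1 and lower in 1 of 6. Tubule markers went both ways. Proximal tubule markers were higher in 3 and lower in 4 of 8 (Slc27a2, -0.41), those of the thick ascending limb higher in 4 and lower in 1 of 5 (Umod, -0.41), those of the distal convoluted tubule higher in 3 of 4 (Trpm6, 0.33) and those of the collecting duct higher in 5 and lower in 2 of 8 (Scnn1b, 0.33). Tubular injury markers were higher in 2 and lower in 2 of 7 (Krt18, 0.31).

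The lists of interferon-stimulated genes and of NF-kB and acute-phase genes held no gene that rose, whereas 26.8% of all genes did. Interferon-stimulated genes were lower in 2 of 8 and higher in none (Ifit3, -0.14), and NF-kB and acute-phase genes were lower in 2 of 8 and higher in none (Cxcl10, -0.57). Genes that hepatocytes secrete were higher in 4 and lower in 3 of 9. The fibrinogen genes Fga and Fgb gave log2 fold changes of 2.40 and 2.41, and Alb gave -2.93. Ahsg, a defining hepatocyte gene, had 0 reads in 41 of 60 libraries and at most 7. The part of these lists in the complement values was not tested.

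The genes whose 12 group means ran most like those of each of the 9 genes were named by a fixed rule, the 2 with the highest Pearson's r of log2 CPM over 12 groups, as a description without a test. Cd55 ran closest to Odc1, ornithine decarboxylase (r = 0.98, log2 fold change -1.05), and Gm15675 (0.98). Cfi ran closest to Dcp1a (0.97) and Sgms2 (0.95), and C4b to Rundc3a and Ppm1j (0.97 each). C3 ran closest to Tpm1 (0.97) and Car3 (0.95), and Cfb to Gm6652 (0.96) and Nfs1 (0.94). C1qb ran closest to Slc4a1 (0.97) and Pld4 (0.96), C1qa to Col16a1 (0.94) and Pfn1 (0.94), and C1qc to Tbc1d10a (0.94) and Pfn1 (0.94). Cd59a had the least close neighbours, Gm16793 (0.92) and Hemk1 (0.87). The 12 means share the split between genotypes, which by itself raises such values for any gene that differs.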

How the data were processed

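Single reads from stranded poly(A) libraries (TruSeq Stranded mRNA) of 60 kidneys had been trimmed with cutadapt 1.8, aligned to GRCm38 with STAR 2.5.3a and counted per Ensembl gene with HTSeq 0.9.1, per the submitters' processing notes. The deposited values are whole-number read counts made by the authors, without normalization or pooling. The authors kept 5 of 6 mice per group by RNA quality and distance in a multidimensional scaling, which can narrow the spread. Lines that name no gene were left out, and reads without a feature had been 7.17% to 10.6% and ambiguous reads 0.953% to 1.27% per library. Symbols came from GENCODE mouse annotation and matched 55154 of 55335 identifiers.

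Counts were tested with edgeR 4.0.16 (R 4.3.3) by quasi-likelihood F tests on the 12 groups plus 2 RUVs factors of unwanted variation, after TMM scaling, on genes that reached 1 CPM in 1 or more libraries, with Benjamini-Hochberg adjustment over 15546 genes and a threshold of 0.05. CPM in the text are TMM-scaled counts of those genes. Contrasts were the mean genotype difference, its variation over time, the difference at each time and the time effect in each genotype. Differences are cKOt minus control. Rhythm was assigned by the 5 dryR models, refitted here on RUVs-corrected log2 CPM (prior count 2), at a BIC weight of at least 0.65. Scripts were tested on simulated counts. DESeq2 1.42.0, limma-trend (limma 3.58.1), other filters, scalings and factors, a batch term, a replicate block and left-out libraries were alternatives. At 41 reads or more per library and gene, counting error adds to the spread between mice, which is contained in the standard errors. The p-values of these tests measure the spread between mice that is left after the 2 RUVs factors, which are themselves estimated from differences between mice of a group. Without the factors 6380 genes passed for the mean difference, against 7778 with them.

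The 9 genes, the 58 complement genes and the marker lists (macrophage, antigen-presenting cell, neutrophil, B cell, T cell, endothelium, fibroblast and mesangium, podocyte, proximal tubule, collecting duct, tubular injury, distal convoluted tubule, thick ascending limb, hepatocyte secreted, erythroid, interferon-stimulated, NF-kB and acute phase) were chosen with earlier results of these data known. Named by rule were the 9 genes, other complement genes that passed with an absolute log2 fold change of at least 0.5 and a mean of at least 1 CPM, a fixed set (C4a, Cd59b, Cd55b, Cr1l and a gene that is not reported here), the marker of largest absolute change that passed in each list, and 2 genes of most similar group means for each of the 9. No 2 libraries of a group agreed within counting noise (lowest ratio of squared difference to counting noise 5.61 over 120 pairs). Same-numbered mice of different groups did not deviate together. Mice of the same batch did so slightly, with a mean correlation of deviations of 0.036, against -0.0070 for mice of different batches. The permutations for pairs of genes kept mice within groups and not within batches.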

Additional observations from a re-analysis of the deposited data

Results flagged for a closer look

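Within groups of 5 mice, 14 of 108 sets of values held a mouse whose gap to its nearest neighbour exceeded 0.71 of the range of the group, where chance gives about 1 in 20 for normally distributed values. The share over all genes was not computed, and some mice appear under more than 1 gene, so an excess over chance is not shown. Of these values 13 were high and 1 was low. For C4b they were control ZT4 replicate 3 at 26.3 CPM (nearest 9.02), control ZT8 replicate 4 at 15.5 CPM (nearest 7.84), control ZT20 replicate 1 at 22.5 CPM (nearest 9.37) and cKOt ZT12 replicate 1 at 10.0 CPM (nearest 4.07). For C3 they were control ZT4 replicate 3 at 24.5 CPM (nearest 12.9) and control ZT16 replicate 5 at 18.1 CPM (nearest 11.7). The Cd59a values were control ZT20 replicate 1 at 32.1 CPM (nearest 26.7), cKOt ZT0 replicate 3 at 32.1 CPM (nearest 28.2) and cKOt ZT12 replicate 1 at 37.0 CPM (nearest 31.2). For C1qa they were control ZT0 replicate 5 at 9.33 CPM (nearest 7.97) and cKOt ZT16 replicate 3 at 9.87 CPM (nearest 7.24). Cfb had control ZT16 replicate 1 at 22.4 CPM (nearest 13.2), and Cfi had cKOt ZT0 replicate 4 at 6.89 CPM (nearest 6.27). The low value was C1qc in cKOt ZT0 replicate 1 at 3.15 CPM (nearest 4.26).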

How the results depend on the processing

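The mean differences of the 9 genes kept their sign and their side of the threshold in each of 19 alternative fits (171 of 171 combinations of gene and fit), with adjusted p up to 0.0497 for C1qc and 0.0486 for Cd59a. With a fold change above 1.2 required, 4 genes were lower and 1 was higher in place of 7 and 2. The 19 calls at single time points held in 327 of 361 combinations of call and fit and lost significance in 34, none changed sign, and their number ran from 15 to 21. The time effect in cKOt mice held for 1 to 2 genes when each replicate number was left out, Cfi alone remaining without number 1, 2 or 3 (adjusted p of Cd55 up to 0.105). Complement genes called lower numbered 16 to 24 and those called higher 6 to 9. Replicate numbers did not pair the mice (mean correlation of deviations 0.0043 for equal and -0.0010 for unequal numbers, and 14 of 60 samples correlated best with their own number). With the replicate block 7734 genes passed for the mean difference against 7778, the C4b call at ZT0 had an adjusted p of 0.0512 and the Cd59a call at ZT20 one of 0.0514, and no other call of the 9 genes was lost. Leaving out control ZT4 replicate 3, cKOt ZT12 replicate 1 and control ZT20 replicate 1 was chosen after seeing the data. The cause of these changes was not tested.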
